A study of Oryctolagus cuniculus with 3 samples.

Results

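The solute carrier genes are described here in day 6 rabbit embryos that had been stored as morulae in either of 2 ways. A gene was taken when its symbol began with SLC followed by a family number, a letter and a member number, and when it had at least 1 probe in the authors' table of ratios. This gave 142 genes of 42 SLC families, with 290 probes, among 6500 named genes in that table. They were 23 genes of the SLC25 family, 73 carriers of the plasma membrane, 30 of other internal membranes, 15 with no location assigned, and SLC7A6OS, a neighbour of SLC7A6 that carries its name and is no carrier. The array holds 232 genes with such symbols, and 90 of them had no probe in the table. These 90 enter no comparison here.

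Embryos were recovered from rabbit does (Oryctolagus cuniculus) as morulae on day 3, stored by slow freezing or by vitrification, placed in recipient females, and collected 3 days later, on day 6. Each of 3 Agilent arrays with 2 channels set RNA of frozen embryos against RNA of vitrified embryos. Frozen embryos were labelled with Cy5 on replicates 1 and 3 and with Cy3 on replicate 2. Slow freezing cools embryos gradually in a dilute cryoprotectant; its protocol, the rabbit strain and the number of embryos pooled per sample are not given in the sources used here. Vitrified morulae went through dimethyl sulphoxide and ethylene glycol and were plunged into liquid nitrogen, and both kinds of embryo were then exposed to transfer and to a recipient uterus. Fresh embryos were not analysed here. Each value is the log2 of the frozen over the vitrified signal, so a value below 0 is a lower signal after freezing, and each gene is given by its probe with the highest mean log2 signal.

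Solute carriers are membrane proteins that move amino acids, sugars, ions, nucleosides, vitamins and metals across membranes, by letting them run down a gradient, by exchange, or by coupling to sodium or protons. In the blastocyst the outer trophoblast layer carries them on its surface and takes up nutrients from the uterine fluid, while ion carriers together with the sodium pump fill the cavity. The SLC25 family sits mostly in the inner mitochondrial membrane and exchanges nucleotides, phosphate, carboxylates, acylcarnitines and cofactors with the cytosol.

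The 3 arrays did not run alike. Over the 142 solute carrier genes, Pearson's r was 0.70 between replicates 2 and 3, -0.34 between replicates 1 and 2 and -0.09 between replicates 1 and 3; the points are genes, which are not independent replicates. Over all probes of the table the values were 0.48, -0.36 and -0.01. The direction of the replicate 2 column is not stated and is likely frozen over vitrified: 10 spike-in probes, added as mixes that normally follow the dye, gave r = 0.99 for replicates 1 and 3 but r = -0.996 for replicates 1 and 2 and r = -0.998 for replicates 2 and 3. If the mixes were added by embryo type instead, the direction would be the opposite one. Results are therefore also given with the sign of replicate 2 turned. All 290 probes were well above background in both channels of replicates 1 and 3, the arrays with scanner output, and 0 were saturated. Mean log2 signals were under 7 for 39 of the 142 genes, and the 10th percentile of the table was 5.90. The number of arrays limits the precision.

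**Figure D1:**
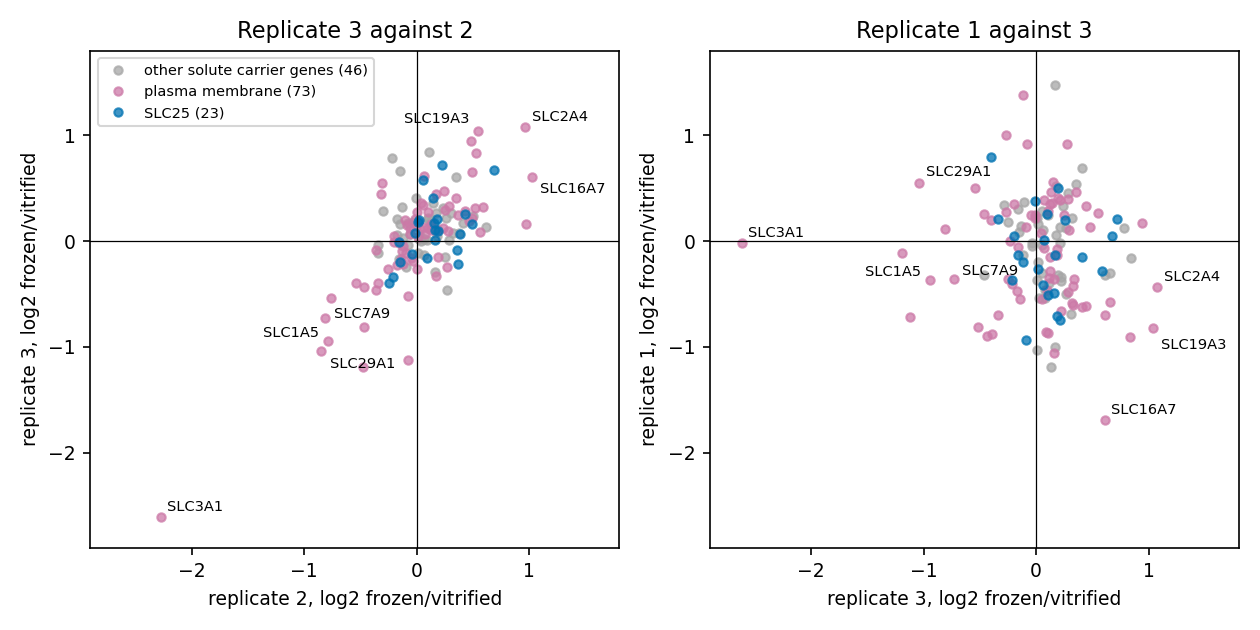
Log2 ratio of frozen over vitrified for each of the 142 solute carrier genes, replicate 3 against replicate 2 on the left and replicate 1 against replicate 3 on the right, with SLC25 genes in blue and plasma membrane carriers in pink. Genes line up from lower left to upper right between replicates 2 and 3 (r = 0.70) and show no such line between replicates 1 and 3 (r = -0.09), and SLC3A1 lies far from the rest on replicates 2 and 3.

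The probes below belong to 8 of the members described, 6 with 1 sign on all arrays and 2 whose sign differed between arrays, and are shown because a 60-base probe is the whole of what each value measures. Chromosome positions are those of the array's design file, whose rabbit genome build was not given in the sources used here. Capitals mark the bases shared by the first and second printed probes of one gene. The SLC3A1 probe lies at chr2:141940010-141940069 on the minus strand and starts at base 1995 of its transcript. The SLC7A9 probes lie at chr5:2830510-2830569 and chr5:2830490-2830549, minus strand, and overlap by 40 bases. The SLC13A5 probes lie at chr19:13871696-13871755 and chr19:13871701-13871760, minus strand, and overlap by 55 bases. The SLC30A4 probe maps to chr17:27112936-27113725 on the plus strand, a span longer than the probe. The SLC19A3 probe lies at chr7:169563470-169563529 on the minus strand and the SLC25A3 probe at chr4:77891345-77891404 on the plus strand. No position is given in the design file for the SLC1A5 and SLC28A3 probes.
SLC3A1: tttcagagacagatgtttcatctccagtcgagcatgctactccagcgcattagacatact
SLC7A9, first probe: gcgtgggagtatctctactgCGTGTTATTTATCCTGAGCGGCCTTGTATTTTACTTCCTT
SLC7A9, second probe: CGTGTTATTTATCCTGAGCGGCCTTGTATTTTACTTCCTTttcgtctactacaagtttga
SLC1A5, second probe: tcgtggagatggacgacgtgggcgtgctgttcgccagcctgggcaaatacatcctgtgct
SLC13A5, first probe: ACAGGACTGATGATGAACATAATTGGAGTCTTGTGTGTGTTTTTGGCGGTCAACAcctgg
SLC13A5, second probe: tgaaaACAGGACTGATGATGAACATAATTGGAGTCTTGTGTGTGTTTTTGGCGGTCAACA
SLC28A3: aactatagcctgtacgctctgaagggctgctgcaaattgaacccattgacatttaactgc
SLC30A4: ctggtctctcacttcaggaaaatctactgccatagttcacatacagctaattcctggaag
SLC19A3: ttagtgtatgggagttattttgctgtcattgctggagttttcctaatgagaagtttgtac
SLC25A3: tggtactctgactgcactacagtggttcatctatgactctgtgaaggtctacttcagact

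The question of the series is how storage by freezing or by vitrification of the morula shows in the transcriptome of the day 6 embryo. No solute carrier gene passed an adjusted p of 0.05 in limma over the 3 arrays: the count was 0 of 142, beside 0.0% of the named genes, and the smallest adjusted p of a member was 0.809. At an unadjusted p under 0.05, 3 members were higher in frozen embryos, against 1.43% of named genes, and 8 were lower, against 2.77%. These shares are 2.11% and 5.63% of the members. Signals lay above 0 on all 3 arrays for 23 members (16.2%, against 10.7% of named genes) and below 0 on all 3 for 14 (9.86%, against 11.6%). The shares of 10.7% and 11.6% are the background for the counts of genes above and below 0 on all arrays in the groups below. With a mean of at least 1.5-fold as well, 1 member was higher (0.704%, against 0.323% of named genes) and 6 were lower (4.23%, against 1.22%). The 6 were SLC3A1, SLC1A5, SLC16A10, SLC7A9, SLC13A5 and SLC16A9, all carriers of the plasma membrane, and the 1 was SLC35F1. With the sign of replicate 2 turned, 17 members lay above 0 on all arrays (12%, against 11% of named genes) and 8 below (5.63%, against 15.3%), and 0 in either direction reached 1.5-fold. The 11 members with an unadjusted p under 0.05 and SLC35F1 kept the sign of their mean when replicate 2 was turned, at values between -0.59 and 0.41. Each had 1 sign on all arrays, so its mean could change sign only if replicate 2 outweighed replicates 1 and 3 together. A kept sign therefore says little. The turned means of SLC25A20, SLC30A4, SLC7A9 and SLC3A1 were near 0, at 0.01, 0.03, -0.09 and -0.12. With normexp background correction and loess on replicates 1 and 3, the means of SLC16A10, SLC13A5, SLC13A2 and SLC4A11 were -0.24, -0.13, -0.25 and -0.19.

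**Figure D2:**
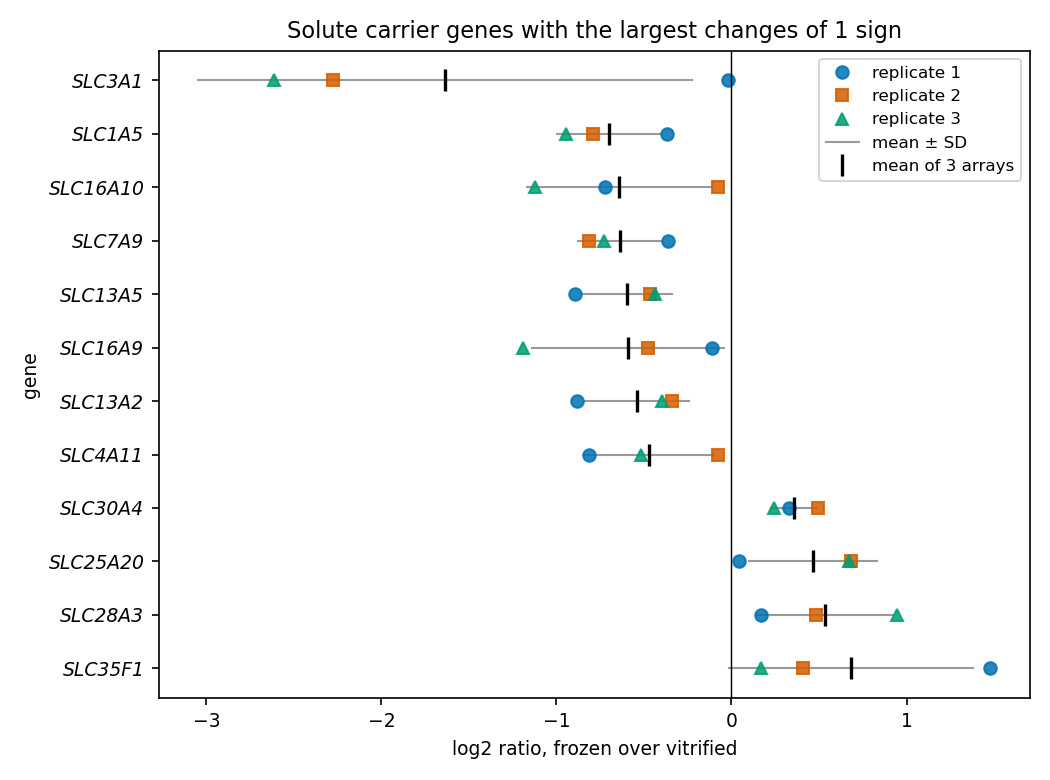
Log2 ratio of frozen over vitrified on each array for the 12 solute carrier genes with an unadjusted limma p under 0.05 or a mean of at least 1.5-fold with 1 sign on all arrays; symbols are the arrays, the black tick is their mean and the grey line is the mean ± SD (n = 3). The 8 genes at the top lie below 0 on every array and the 4 at the bottom above it, and SLC3A1 has its replicate 1 value near 0.

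Amino acid carriers held 4 of the 6 members that were lower by 1.5-fold or more. SLC3A1, the heavy chain that brings the cystine and basic amino acid transporter to the cell surface, had log2 ratios of -0.02, -2.28 and -2.61 on replicates 1, 2 and 3. Its mean was -1.64 ± 1.41 (SD, n = 3), or 3.11-fold lower after freezing (SE 0.51; limma adjusted p = 0.976). Replicates 2 and 3 were far below 0 and replicate 1 was not. Its other 3 probes, which start between bases 1861 and 3705 of the transcript, also lay below 0 on all arrays, and the 4 probe means ran from -1.95 to -1.52. Without replicate 1 the mean of SLC3A1 was -2.44 and its adjusted p 0.00071, and with replicate 2 turned the mean was -0.12.

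SLC7A9 is the light chain that forms that cystine transporter with SLC3A1. It had -0.36, -0.81 and -0.73 on replicates 1, 2 and 3, with a mean of -0.63 ± 0.24 (SD, n = 3), or 1.55-fold lower after freezing (limma adjusted p = 0.809). All 3 arrays lay below 0, replicate 1 the least. The 4 overlapping probes of SLC7A9, of which the first and second are printed above, had means of -0.80 to -0.63. Both chains of this transporter lay below 0 on each array, the heavy chain only just so on replicate 1. With replicate 2 turned the mean of SLC7A9 was -0.09.

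SLC1A5, a sodium-dependent exchanger of glutamine and other neutral amino acids, had -0.37, -0.79 and -0.94. Its mean was -0.70 ± 0.30 (SD, n = 3), or 1.63-fold lower after freezing (limma adjusted p = 0.809), and with replicate 2 turned it was -0.17. The second SLC1A5 probe, printed above, starts at base 1416 of the transcript, more than a probe length from the first at base 2498, and had -1.18, -0.49 and -0.88. Both probes lay below 0 on all arrays, but their lowest array differed. SLC16A10, a carrier of aromatic amino acids, had -0.72, -0.08 and -1.12, with replicate 2 near 0; its mean log2 signal of 5.49 was under the 10th percentile of the table.

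The chains that pair with SLC3A2, the heavy chain of the large neutral amino acid transporters, differed in sign over the arrays. SLC3A2 had -0.48, -0.14 and -0.17, below 0 on all arrays, with a mean of -0.26 ± 0.19 (SD, n = 3). Its light chain SLC7A5, which exchanges leucine and other large neutral amino acids, had 0.20, -0.54 and -0.40. SLC7A8, a light chain for a wider range of neutral amino acids, had 0.11, -0.47 and -0.81. Both light chains were above 0 on replicate 1 and below it on replicates 2 and 3. SLC7A7 and SLC7A6, light chains for basic and neutral amino acids, had -0.86, 0.57 and 0.09, and -0.66, 0.49 and 0.22. The probes of SLC7A6 disagreed: its other 5 lay above 0 on replicate 1, at 0.21 to 0.35, and between -0.09 and 0.12 on replicates 2 and 3. SLC7A7 was named after its values were seen, to complete the pairs.

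Of 23 amino acid carriers in all, 0 lay above 0 on all 3 arrays and 5 below it, and 12 had a mean below 0. Their medians were -0.02, -0.06 and -0.01 on replicates 1, 2 and 3, beside -0.08, 0.04 and 0.02 over all named genes. Of 9 carriers known to be induced when amino acids run short, 4 were measured: SLC1A5, SLC3A2, SLC7A5 and SLC38A2. All 4 lay below 0 on replicates 2 and 3, and 2 of the 4 did on replicate 1. Of 6500 named genes, 3800 lay below 0 on replicate 1, 2790 on replicate 2 and 3034 on replicate 3. The means of SLC1A5, SLC3A2, SLC7A5 and SLC38A2 were -0.17, -0.17, 0.11 and 0.12 with replicate 2 turned. SLC38A2, a sodium-coupled carrier of small neutral amino acids, had 0.22, -0.15 and -0.01, a mean near 0.

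CLTRN, a membrane protein that carries amino acid transporters to the cell surface, was not chosen by the rule and was in a list of 21 transport partners, of which 14 were measured. It had 0.22, -1.28 and -1.27, near the run of SLC3A1 over the arrays. The mean of CLTRN was -0.78, and 0.08 with replicate 2 turned. Among the other partners, ATP1B3, a subunit of the sodium pump, had -0.43, -0.27 and -0.42, below 0 on all arrays, while ATP1B1, another such subunit, had 0.02, 0.18 and 0.53. CA4, a carbonic anhydrase of the cell surface, had 1.21, 0.22 and 0.09. In the list of partners 4 genes were above 0 on all arrays and 2 below.

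Some markers of the hypoblast, the inner layer that lines the blastocyst cavity, were low on the arrays where SLC3A1 and CLTRN were low. Of 12 markers, 6 were measured, and their medians were 0.12, -1.10 and -1.56 on replicates 1, 2 and 3. All 6 lay below 0 on replicates 2 and 3 and 3 of the 6 on replicate 1. Over all named genes, 3800 of 6500 lay below 0 on replicate 1, 2790 on replicate 2 and 3034 on replicate 3. The median of the 6 marker means was -0.89, and -0.19 with replicate 2 turned. APOA1, a lipoprotein component, had 0.51, -1.38 and -2.20, and RBP4, the retinol carrier of blood, had 0.66, -1.98 and -1.76. DKK1, a secreted WNT inhibitor, had 0.59, -1.58 and -1.37, and APOB, another lipoprotein component, had -0.27, -0.81 and -1.88. CER1, a secreted signalling inhibitor, and GATA4, a transcription factor, ran otherwise, with -0.59, -0.14 and -0.93, and -0.50, -0.05 and -0.38. Turning replicate 2 gave means of -0.10 for APOA1, 0.29 for RBP4, 0.27 for DKK1, -0.45 for APOB, -0.46 for CER1 and -0.28 for GATA4. Markers of the trophoblast, 5 of 8 measured, had medians of -0.31, 0.26 and 0.36. Of the epiblast markers 3 of 6 were measured, with medians of -0.75, -0.06 and -0.63. POU5F1, the pluripotency factor, was below 0 on all arrays with -0.75, -0.52 and -1.62. ETV4 was too, with -1.04, -0.06 and -0.63, but its mean log2 signal of 5.61 was under the 10th percentile of the table. DPPA5 ran otherwise, with -0.15, 0.13 and 0.42. Of the uterine markers 2 of 7 were measured, with medians of -0.48, -0.31 and -0.44. Of the blood markers 2 of 7 were measured: ALAS2, the red cell enzyme of haem synthesis, had 0.34, -1.73 and -1.21, and S100A9, a granulocyte protein, had 0.54, -0.15 and 0.25. Their means with replicate 2 turned were 0.28 and 0.31. These are ratios, so fewer cells of a type and less RNA per cell cannot be told apart, and the part of cell makeup in the carriers' values was not tested.

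Carboxylate carriers held the other 2 members lower by 1.5-fold. SLC13A5, a sodium-coupled importer of citrate, had -0.89, -0.46 and -0.43, with a mean of -0.60 ± 0.26 (SD, n = 3), or 1.51-fold lower after freezing (limma adjusted p = 0.845). Its mean log2 signal was 6.07, and its 5 overlapping probes had means of -0.60 to -0.29. SLC13A2, a carrier of succinate and other dicarboxylates of the same family, had -0.88, -0.34 and -0.40, with a mean of -0.54 ± 0.30 (SD, n = 3). In both, replicate 1 was the lowest array, the reverse of SLC3A1. Their relative SLC13A3, also a dicarboxylate carrier, had 0.46, 0.04 and 0.36, above 0 on all arrays.

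SLC16A9, a monocarboxylate family member that carries carnitine, had -0.11, -0.48 and -1.19, a mean of -0.59 ± 0.55 (SD, n = 3). SLC16A7, which carries lactate and pyruvate, had the largest SD of any member, with -1.69, 1.02 and 0.61. Replicate 1 was far below 0 while replicates 2 and 3 were above it, and the mean was -0.02 ± 1.46 (SD, n = 3). Of 9 carboxylate carriers, 2 lay above 0 and 3 below it on all arrays, and the medians were -0.50, 0.04 and 0.21 on replicates 1, 2 and 3.

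Nucleoside carriers were split. SLC28A3, which concentrates nucleosides with sodium, had 0.17, 0.48 and 0.94, above 0 on all arrays, and a mean of 0.53 ± 0.39 (SD, n = 3), or 1.45-fold higher after freezing (limma adjusted p = 1.00). Its second probe had 0.13, 0.47 and 0.96. SLC28A2, a relative for purine nucleosides, had 0.50, -0.76 and -0.54, and SLC29A1, which equilibrates nucleosides across the membrane, had 0.55, -0.85 and -1.04. Both were above 0 on replicate 1 and below it on the other arrays. SLC29A2, a second equilibrative carrier, had -0.36, 0.06 and 0.34. The 5 overlapping probes of SLC29A1 had means between -0.44 and -0.37. Means of SLC28A3, SLC28A2, SLC29A1 and SLC29A2 were 0.53, -0.27, -0.44 and 0.01. They were 0.21, 0.24, 0.12 and -0.03 with replicate 2 turned.

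Glucose carriers differed from each other in sign over the arrays. SLC2A1, the basal glucose carrier of most cells, had 0.92, -0.36 and -0.08, high on replicate 1. SLC2A4, the insulin-responsive carrier, had -0.43, 0.97 and 1.08, low on replicate 1 and high on replicates 2 and 3. SLC2A3, a high-affinity carrier of early embryos and neurons, had -0.07, 0.47 and 0.19. The mean log2 ratios were 0.16 ± 0.67, 0.54 ± 0.84 and 0.19 ± 0.27 (SD, n = 3) in this order, and each SD was larger than the mean. Turning replicate 2 gave means of 0.40, -0.11 and -0.12 in the same order. SLC2A8, an intracellular glucose carrier, had -1.03, 0.04 and 0.00. The sodium-coupled carriers SLC5A1 and SLC5A2, of gut and kidney, had 0.33, -0.31 and 0.44, and 0.40, 0.00 and 0.28. SLC5A2 and SLC5A9, a carrier of mannose and other hexoses, were the 2 of 10 sugar carriers above 0 on all arrays, and 0 lay below it on all 3. The mean log2 signal of SLC5A2 was 5.70, under the 10th percentile of the table.

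Vitamin and cofactor carriers outside the SLC25 family ran together over the arrays. SLC25A32, a carrier of folate and flavin nucleotides that is counted in SLC25, did not, with 0.25, 0.19 and 0.10. All 6 measured outside SLC25 lay below 0 on replicate 1 and above it on replicates 2 and 3, with medians of -0.59, 0.39 and 0.39. They were SLC19A1 and SLC46A1 for folate, SLC19A3 for thiamine, SLC52A3 for riboflavin, SLC23A2 for ascorbate and SLC5A6 for biotin and pantothenate. SLC19A3 had -0.82, 0.54 and 1.04, with a mean of 0.25 ± 0.96 (SD, n = 3), and its 3 probes had means of 0.25 to 0.31. SLC52A3 had -0.58, 0.50 and 0.65, and SLC5A6 had -0.42, 0.59 and 0.33. SLC46A1 had -0.36, 0.13 and 0.16 and SLC19A1 -0.62, 0.17 and 0.44. The mean over the arrays was small against the spread for each. Among all members 50 had that order, below 0 on replicate 1 and above it on the other arrays (35.2%, against 25.5% of named genes). The opposite order was found for 21 members (14.8%, against 14.2% of named genes). With replicate 2 turned, these orders were found for 5 members (3.52%, against 6.09% of named genes) and 4 members (2.82%, against 5.57%). The 6 vitamin carriers then lay below 0 on replicates 1 and 2 and above it on replicate 3, with means between -0.23 and -0.11.

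**Figure D3:**
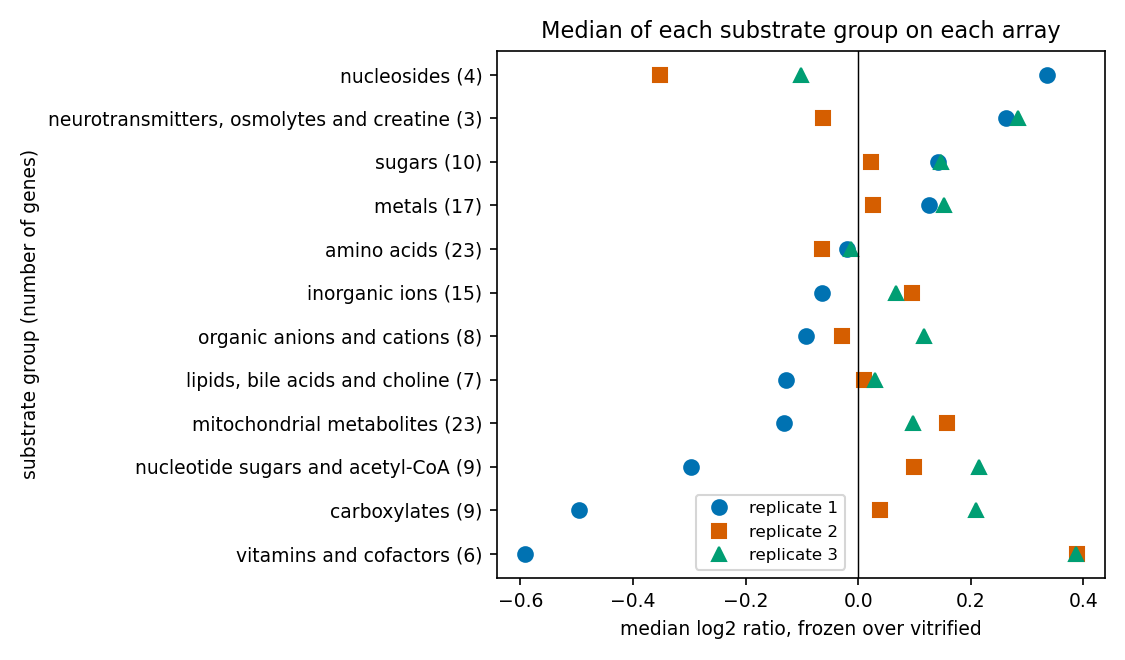
Median log2 ratio of frozen over vitrified on each array for the substrate groups with at least 3 genes, the number of genes in brackets. Vitamin and cofactor carriers have medians of -0.59, 0.39 and 0.39 and carboxylate carriers -0.50, 0.04 and 0.21. The median of the 4 nucleoside carriers is above 0 on replicate 1, at 0.34, with 1 of the 4 below 0. Sugars, metals, and neurotransmitters, osmolytes and creatine also have medians above 0 there, at 0.14, 0.13 and 0.26.

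Of 17 metal carriers, 5 lay above 0 on all arrays and 1 below it. Their mean was above 0 in 13 (76.5%), against 57.0% of the 142 members and 46.8% of all named genes. Of the 2 zinc families, 6 of 7 SLC30 genes and 5 of 8 SLC39 genes had a mean above 0. These are few genes, and a difference between the families was not tested. In SLC39, 0 genes had 1 sign on all arrays, and its median on replicate 1 was -0.31, against 0.16 in SLC30. SLC30A4, which moves zinc from the cytosol into vesicles, had 0.33, 0.50 and 0.24, all above 0, with a mean of 0.36 ± 0.13 (SD, n = 3). Its 4 probes had means of 0.24 to 0.40. SLC30A2 and SLC30A9, of the same zinc family, had 0.13, 0.17 and 0.26, and 0.25, 0.19 and 0.11. SLC31A1, the main copper importer, had 0.92, 0.10 and 0.27. The second probe of SLC30A9 had -0.11, 0.47 and -0.05, against the first on replicates 1 and 3. With the sign of replicate 2 turned, 13 metal carriers again had a mean above 0 (76.5%), against 47.9% of the members and 41.2% of all named genes, and the means of SLC30A4 and SLC30A9 were 0.03 and 0.06. With normexp and loess on replicates 1 and 3, SLC30A4 had a mean of 0.13.

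Ion carriers lay on both sides of 0. SLC4A11, a member of the bicarbonate carrier family that conducts protons, had -0.81, -0.08 and -0.52, with a mean of -0.47 ± 0.37 (SD, n = 3). SLC4A4, a sodium bicarbonate cotransporter, had 0.25, 0.37 and 0.25, above 0 on all arrays, with a mean of 0.29 ± 0.07 (SD, n = 3). Its mean log2 signal was 5.90, at the 10th percentile of the table, and the mean of SLC4A4 was 0.04 with replicate 2 turned and 0.07 with normexp and loess on replicates 1 and 3. SLC34A2, a sodium phosphate cotransporter, had 0.13, 0.24 and 0.48. SLC12A2, which brings in sodium, potassium and chloride, had -0.06, -0.05 and -0.16. The other 4 probes of SLC12A2 disagreed with it, at -0.89 to -0.65 on replicate 1, -0.03 to 0.71 on replicate 2 and -0.30 to 1.14 on replicate 3; the median over its probes gave a mean of -0.26. SLC4A2, an anion exchanger, had -0.70, 0.17 and -0.33. Of 15 ion carriers, 3 lay above and 2 below 0 on all arrays.

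Among the remaining carriers, SLC44A5, of the choline carrier family, had 1.38, -0.09 and -0.11, high on replicate 1 alone. SLC44A1, the choline carrier of most cells, had -0.87, 0.18 and 0.10, low on replicate 1. SLC22A6, an organic anion carrier of kidney, had 0.46, 0.05 and 0.13, and SLC22A7, of liver and kidney, had -0.41, -0.12 and -0.22. SLC6A8, the creatine carrier, had -0.48, 0.43 and 0.28. SLC39A2, a zinc importer counted above among the metal carriers, had -1.06, 0.97 and 0.16 with a mean of 0.02 ± 1.02 (SD, n = 3). Its mean log2 signal of 4.87 was under the 10th percentile of the table. SLC27A4, a fatty acid transport protein, had -1.19, 0.62 and 0.13. SLC35F1, whose substrate is not assigned, was the 1 member above 0 on all arrays with a mean of at least 1.5-fold, with 1.48, 0.41 and 0.17, a mean of 0.69 ± 0.70 (SD, n = 3), or 1.61-fold higher after freezing (limma adjusted p = 1.00). Replicate 1 was its highest array by far, and without it the mean was 0.29.

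The Golgi and endoplasmic reticulum carriers of nucleotide sugars and acetyl-CoA, which feed glycosylation and acetylation, gave medians of -0.30, 0.10 and 0.21. Of 9, 7 lay below 0 on replicate 1 and 8 above it on replicate 3, and 0 had 1 sign on all arrays. Of 6500 named genes, 3800 lay below 0 on replicate 1 and 3466 above it on replicate 3. SLC35C2, of the Golgi, had -0.69, 0.23 and 0.31, and SLC35A2, the UDP-galactose carrier, had 0.22, -0.13 and 0.32. The mean log2 signal of SLC35A2 was 5.75, under the 10th percentile of the table. SLC33A1, the acetyl-CoA carrier, had -0.30, 0.18 and 0.05. Their means lay between -0.05 and 0.14.

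Among the 23 SLC25 carriers, 5 lay above 0 on all arrays and 1 below it, beside 10.7% and 11.6% of named genes. Of the 23, 0 had 1 sign and 1.5-fold, beside 0.323% of named genes higher and 1.22% lower. SLC25A20, which exchanges carnitine and acylcarnitines for fatty acid oxidation, had 0.05, 0.69 and 0.67, with a mean of 0.47 ± 0.37 (SD, n = 3), or 1.38-fold higher after freezing (limma adjusted p = 1.00). Replicate 1 was near 0. Its second probe had 0.24, 0.39 and 0.48, and with replicate 2 turned the mean of SLC25A20 was 0.01. SLC25A34 had 0.21, 0.23 and 0.72, SLC25A47 had 0.20, 0.43 and 0.26, SLC25A16 had 0.51, 0.02 and 0.20 and SLC25A32, a carrier of folate and flavin nucleotides, had 0.25, 0.19 and 0.10. These 4 with SLC25A20 are the 5 above 0 on all arrays. The 1 below was SLC25A17, a peroxisomal member of the family, with -0.20, -0.04 and -0.12.

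The carriers at the centre of energy exchange lay on both sides of 0. SLC25A4, the ADP and ATP exchanger, had -0.28, 0.05 and 0.58, a mean of 0.12 ± 0.44 (SD, n = 3). Its other 4 probes, set 1 base apart, had -0.14 to 0.01 on replicate 1, -0.15 to -0.02 on replicate 2 and 0.70 to 0.77 on replicate 3, so that its sign is steady on replicate 3 only. SLC25A3, the phosphate carrier, had -0.51, 0.16 and 0.11, a mean of -0.08 ± 0.37 (SD, n = 3); its second probe had -0.76, 0.32 and 0.01. SLC25A11, which exchanges oxoglutarate and malate, had -0.71, 0.02 and 0.19. SLC25A3 and SLC25A11 were below 0 on replicate 1 and above it on replicates 2 and 3. That order was found in 9 of the 23 SLC25 genes by their brightest probes, beside 25.5% of named genes. SLC25A13, an aspartate and glutamate exchanger of the malate-aspartate shuttle, had -0.93, 0.35 and -0.09, the lowest family value on replicate 1. SLC25A24, an ATP-magnesium and phosphate carrier, had 0.79, -0.24 and -0.40, the highest there. The other 3 probes of SLC25A24 ran from -0.14 to 0.76 on replicate 1, with 1 below 0, and its 4 probe means from -0.27 to 0.06.

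**Figure D4:**
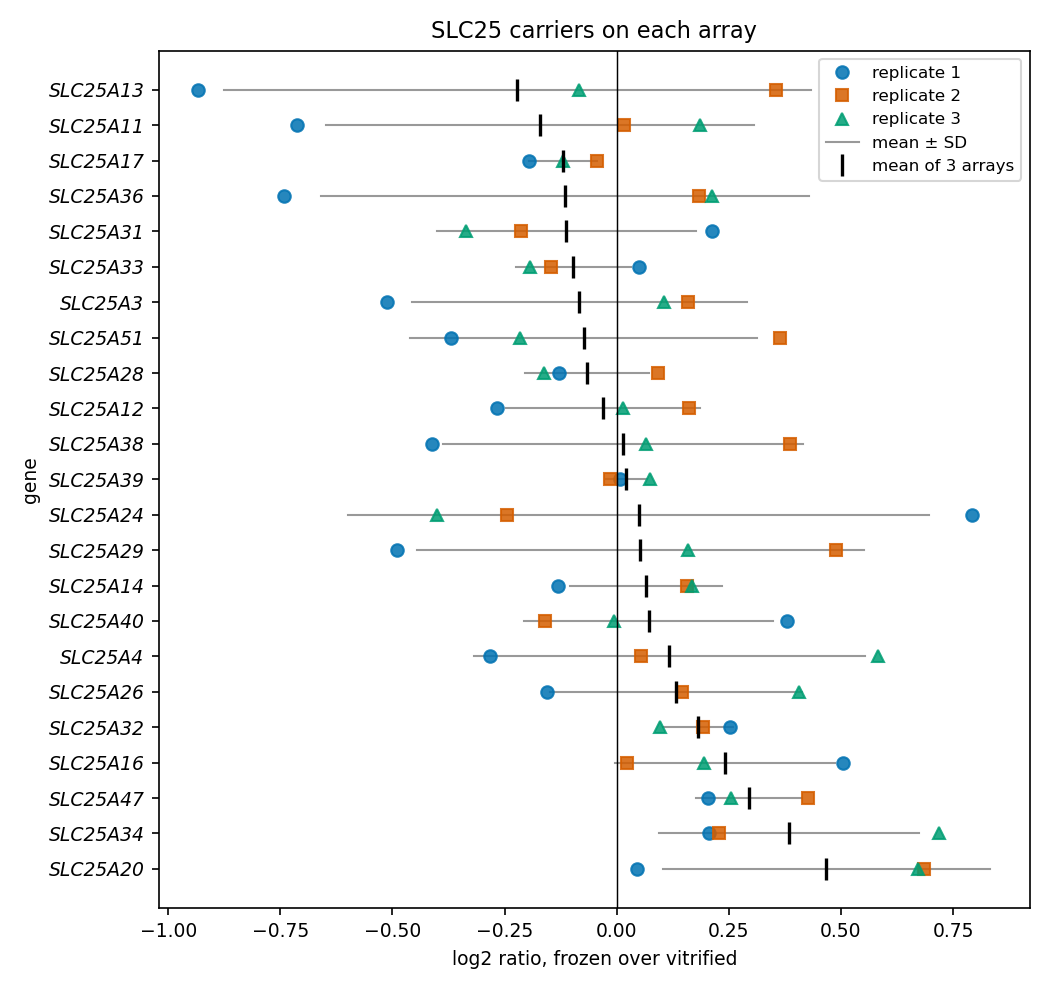
Log2 ratio of frozen over vitrified of the 23 SLC25 genes on each array, in order of their mean; symbols are the arrays, the black tick is the mean and the grey line the mean ± SD (n = 3). The 5 genes SLC25A32, SLC25A16, SLC25A47, SLC25A34 and SLC25A20 have all 3 symbols to the right of 0 and SLC25A17 all 3 to the left.

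The SLC25 family and the plasma membrane carriers did not stand apart as groups. The median of the 23 SLC25 genes was -0.13, 0.16 and 0.10 on replicates 1, 2 and 3, and that of the 73 plasma membrane carriers was -0.07, 0.01 and 0.11. The SLC25 median minus the plasma membrane median was -0.06, 0.15 and -0.01, so it changed sign between arrays, and the smallest 2-sided p of an exact sign-flip test over 3 arrays is 0.25. Over the gene means the medians were 0.02 and 0.02, beside -0.01 over all named genes, and their difference was 0.0054. With replicate 2 turned that difference was 0.057. The plasma membrane carriers had the wider range of means, from -1.64 to 0.54 against -0.22 to 0.47 in SLC25. A range widens with the number of genes, here 73 against 23. Its low end was SLC3A1 alone, the next being SLC1A5 at -0.70. On all arrays, 5 of 23 SLC25 genes lay above 0 and 1 below it. For the 73 plasma membrane carriers these counts were 10 and 11. Without the 17 amino acid carriers among them, 10 of 56 plasma membrane carriers lay above 0 and 6 below it on all arrays. The median SD over the arrays was 0.29 in SLC25 and 0.33 in the plasma membrane carriers, against 0.26 over all named genes.

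**Figure D5:**
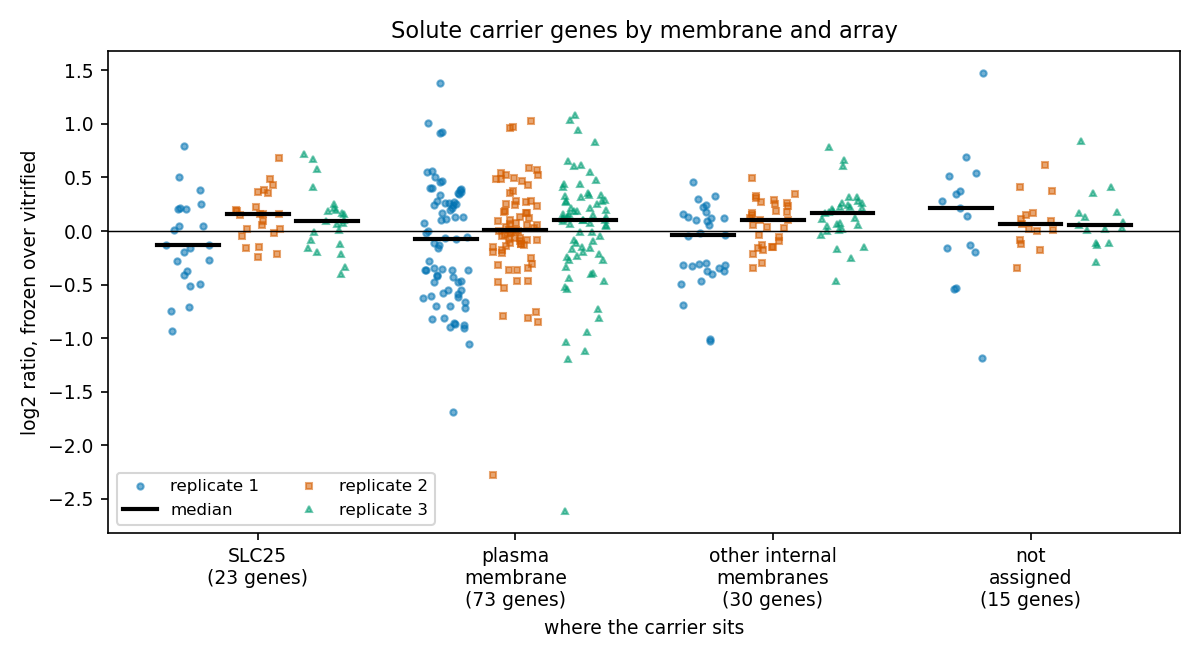
Log2 ratio of frozen over vitrified of each gene, by membrane class and array; each symbol is 1 gene and the black bars are medians. The SLC25 medians are -0.13, 0.16 and 0.10 and the plasma membrane medians -0.07, 0.01 and 0.11, and the gene below -2 on replicates 2 and 3 is SLC3A1.

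Transport proteins known by other names were read from a list of 43. Of these, 22 were measured, 6 above 0 and 2 below it on all arrays. XPR1, a phosphate exporter, had 0.67, 0.17 and 0.37, and UCP2, an uncoupling protein of the SLC25 fold, had 0.26, 0.18 and 0.27. FLVCR1, a carrier linked to haem and choline, was below 0 on all arrays with -0.60, -0.10 and -0.10. Their medians of -0.10, 0.17 and 0.15 are beside -0.06, 0.06 and 0.11 for the 142 solute carrier genes.

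The number of members past the limma threshold rested on replicate 1. Without it, with 2 arrays left, 5 members were higher in frozen embryos at an adjusted p under 0.05 (3.52%, against 1.02% of named genes) and 5 were lower (3.52%, against 2.08%). With replicate 2 turned as well, 0 members passed in limma in either direction, beside 0.0% of named genes, and 0 had an unadjusted p under 0.05. The 5 higher were SLC2A4, SLC16A7, SLC25A20, SLC19A3 and SLC16A6, a monocarboxylate family member with -0.91, 0.53 and 0.83 that was named after its values were seen. The 5 lower were SLC3A1, SLC29A1, SLC1A5, SLC7A9 and SLC28A2. SLC28A2 has 1 probe, with a mean log2 signal of 5.34, under the 10th percentile of the table. The means of SLC2A4, SLC3A1 and SLC29A1 without replicate 1 were 1.02, -2.44 and -0.94. On replicate 1 itself, SLC2A4, SLC16A7, SLC19A3 and SLC16A6 lay below 0, and SLC29A1 and SLC28A2 above it, against the sign of the other arrays; SLC25A20, SLC3A1, SLC1A5 and SLC7A9 kept their sign on all 3. Per the labels these are biological replicates, and which embryos or does each came from is not said.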

How the data were processed

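RNA of frozen and vitrified embryos was compared on 3 arrays with 2 channels each, 100 ng of total RNA being labelled per the labels' protocols. Spots were quantified by Agilent Feature Extraction 10.10.1.1, per the submitters' processing notes. The scanner output of replicates 1 and 3 holds processed spot intensities, background-subtracted and dye-normalized per the file headers, a deposited log10 ratio of red over green, and flags for spots well above background or saturated. The deposited value table holds log2 ratios of all 3 arrays; its scale and direction are unstated. It differed from the log2 ratio of processed red over green by at most 0.0141 on replicate 1 and 0.0091 on replicate 3, so there it is frozen over vitrified, and it was not centred: column medians were -0.015, 0.021 and 0.017. How the authors filtered probes was not given in the sources used here. Other columns of per-sample values numbered 0.

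Probes were named by RefSeq transcript (197 of the 290), by Entrez ID (88) or by the symbol in the file (5); 13911 of 22839 probes had a name, and 2 members carry another symbol in the file. A further 4 genes with such symbols are not reported here. Carriers were sorted by location and substrate from textbook knowledge. Of 58 members with several probes, 40 had probe means of 1 sign.

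Each probe's mean log2 ratio was tested against 0 with limma 3.58.1 in R 4.3.3 (lmFit, eBayes), with Benjamini-Hochberg adjustment over all 22839 probes and a threshold of 0.05; tables were made with pandas 2.3.3 in Python 3.11.15. The fit was checked on simulated data. Genes named are members past the threshold, up to 12 per direction of 1 sign and at least 1.5-fold, in SLC25 and each substrate group the 4 with the smallest unadjusted p, the 5 with the largest SD, fixed lists and the subunit pairs. Alternatives were the sign of replicate 2, centring, dye as a covariate, an intensity trend, the median over probes, a signal of at least 7, normexp (offset 50) with loess, and leaving out each array. The members, lists and tests were chosen with earlier results of these data known.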

Additional observations from a re-analysis of the deposited data

How the results depend on the processing

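The count of solute carrier genes past the limma threshold was 0 with the sign of replicate 2 turned, with dye orientation as a covariate, with an intensity trend and without replicate 2 or 3, and 10 without replicate 1 (range 0 to 10 when each array was left out). The smallest adjusted p of any probe over 3 arrays was 0.550. With the sign of replicate 2 turned, the counts of members of 1 sign and at least 1.5-fold went from 1 higher and 6 lower to 0 and 0. Leaving out 1 array, they ranged from 1 to 6 higher and from 4 to 8 lower. The cause was not tested. Centring, the median over probes and the filter on dim probes kept 1 higher and gave 4 to 6 lower. Leaving out 1 array, the median was -0.062 to 0.13 for SLC25, -0.047 to 0.069 for plasma membrane carriers and -0.025 to 0.063 for the difference. Of 70 named genes, the mean changed sign in 15 with replicate 2 turned, in 7 with the dye covariate, in 8 with normexp and loess, in 14 without replicate 1, in 6 without replicate 2, in 10 without replicate 3, in 2 with the median over probes and in 0 with centring. Each array already pairs frozen with vitrified RNA, so the test of its ratios against 0 is the paired test and no further replicate block could be fitted. With replicate 1 left out and replicate 2 turned together, an alternative chosen after seeing the data, the count past the threshold was 0.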

Other observations

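Solute carrier genes outside the value table can be read only from the flags of replicates 1 and 3, where frozen embryos were in Cy5 on both arrays. Of the 90 such genes, 14 had a probe well above background in the frozen channel of both arrays and none in the vitrified channel of either, 0 the other way round, 1 was above background in both channels of both arrays, and 46 in none. Among the 14 were SLC15A1, a peptide carrier of gut, SLC2A5, a fructose carrier, and SLC39A14, a carrier of zinc and iron. Of all 20764 probes outside the table, 12% were well above background in the frozen channel only and 0 in the vitrified channel only, and of the 190 probes of these genes 18 (9.47%) and 0. Cy5 and frozen embryos cannot be told apart on these 2 arrays.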
